A study of Mus musculus with 8 samples.

Results

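The genes described here are 10 members of the circadian clock, measured in single nuclei of adult mouse heart: Npas2, Clock, Per1, Per2, Per3, Cry1, Nr1d1, Nr1d2, Dbp and Tef. They were taken by symbol from the 32285 genes that each count matrix lists, and all 10 were present. The study compared hearts of female and male mice that were either non-transgenic (genotype "WT- non Tg", nTg) or transgenic (Tg) with constitutive expression of cyclin A2, the cell-cycle regulator encoded by Ccna2. Neither the promoter of the transgene nor the strain, the age beyond adult, the time of day of tissue collection or the number of hearts behind each library is stated in the labels. Levels are therefore not placed on a daily cycle, and p-values measure only the spread between these libraries, which may be technical.

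Circadian clocks run in most cells. CLOCK, or its relative NPAS2, pairs with BMAL1 (gene Arntl) and activates genes that carry E-boxes, among them the Per, Cry, Nr1d and PAR-bZIP genes. PER and CRY proteins return to block that activation, and the nuclear receptors REV-ERBα (Nr1d1) and REV-ERBβ (Nr1d2) repress Arntl, Npas2 and Cry1 through elements that ROR receptors activate. In the heart this loop is known to time metabolism and excitability over the day, with the PAR-bZIP factors DBP and TEF passing the rhythm on through D-boxes.

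Of 8 libraries in the series, 5 were analysed. Every set of 5 values gives first the library labelled nTg Female 1, then those labelled Tg Female (1, 2) and last those labelled Tg male (1, 2). The matrices of the other 3 held the same values as 3 of these and did not match their own barcode lists, and were not analysed here. The 5 libraries held 25045167 to 38593706 UMIs and kept 5750 to 8943 nuclei each, 34745 in all, and 14 to 28 barcodes were shared between any 2 of them. Ccna2 in cardiomyocytes was 448, 0.529, 838, 237 and 145 CPM (UMIs of a gene per 1000000 UMIs of the same sum), so the level in nTg Female 1 and that in Tg Female 1 went against what these are labelled, and libraries are named by label throughout. Nuclei were clustered without the clock genes, and 8 types with at least 50 nuclei in every library were tested: cardiomyocytes, fibroblasts, endothelial, endocardial and lymphatic endothelial cells, macrophages, pericytes and smooth muscle, 33533 nuclei in all. All listed markers were highest in their own type except Pecam1 and Kdr (endothelial) and Myocd (smooth muscle), and no marker was at 0. Named types are "like" types, defined only by resemblance to the marker lists.

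The E-boxes and D-boxes near the starts of these genes are shown here because the members differ in which of them they carry. RefSeq promoters (GRCm38.p6) were matched for 9 of the 10 members, all but Per2, and the 250 bases before each start were searched on both strands for the E-box CACGTG, the E-prime box CACGTT, the D-box TTANGTAA and the ROR/REV-ERB response element (RORE). Capitals mark the matches. AACGTG is CACGTT read on the other strand.
Per1, chr11:69098753-69098818, plus strand: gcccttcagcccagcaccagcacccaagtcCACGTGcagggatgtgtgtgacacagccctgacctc
Cry1, chr10:85185079-85185163, minus strand: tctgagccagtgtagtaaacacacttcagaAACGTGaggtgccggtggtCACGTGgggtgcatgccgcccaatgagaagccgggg
Tef, chr15:81811246-81811311, plus strand: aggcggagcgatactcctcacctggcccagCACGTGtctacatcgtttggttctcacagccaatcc
Nr1d1, chr11:98775378-98775435, minus strand: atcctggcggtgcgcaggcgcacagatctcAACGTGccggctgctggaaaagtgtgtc
Per3, chr4:151044786-151044900, minus strand: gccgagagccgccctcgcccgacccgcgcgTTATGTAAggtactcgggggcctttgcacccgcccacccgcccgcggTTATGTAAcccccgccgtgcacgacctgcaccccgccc
The E-box of Per1 starts 166 bases before one of its 2 listed starts, that of Cry1 60 bases before its start, and that of Tef 138 bases before one of its 2 starts. The other Tef start also has a CACGTG, 127 bases before it. Nr1d1 holds an E-prime box 28 bases before its start, and Per3 holds a pair of D-boxes 205 and 158 bases before its start. None of these 4 motifs was found in the windows of Npas2, Clock, Nr1d2 or Dbp. Over all 32851 promoter windows in the table, CACGTG was present in 6.02%, CACGTT in 3.85%, TTANGTAA in 2.06% and the RORE in 0.350%. A match is a description of the sequence and not a bound site, and the absence of one says only that these letters are not in this window.

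The first comparison asked in which heart cells each clock gene is high or low. Among the 8 tested types, Npas2 was highest in cardiomyocytes, Clock in macrophages and Per2 in pericytes and smooth muscle. Per3 and Nr1d1 were highest in fibroblasts, and Cry1 in endothelial cells and pericytes. Ranks of types below are among these 8 unless others are named. Each type was set against the mean of the other 7 in 1 edgeR quasi-likelihood fit over the 5 libraries, with library as a term, trimmed-mean (TMM) scaling and Benjamini-Hochberg adjustment at 0.05. All 10 members passed the filter on low counts in that fit. The filter was set over all types together, so a gene can pass through the types where it is high. The lower calls of Npas2 in endothelial cells, macrophages and lymphatic endothelium rest on 23, 8 and 2 UMIs over the 5 libraries. They are among the lower calls counted next. Of the 80 pairs of member and type, 58 (72.5%) passed, 28 higher and 30 lower, where the same test passed 50.8% of all gene and type pairs. Scaling by total UMIs instead lowered the median cardiomyocyte difference over all genes by 0.59 on the log2 scale and moved the share of higher calls there from 52.7% to 30.1%, and 49 of the 58 member calls kept their direction and their call under both scalings. That share went from 59.1% to 72.1% in endocardial cells, from 53.9% to 70.0% in fibroblasts, from 52.2% to 70.9% in lymphatic endothelium and from 53.5% to 43.4% in smooth muscle. Of the 58, 42 passed under each alternative that gave them a value, though 17 of these 42 had no value where at least 10 UMIs were asked of every sum.

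**Figure D1:**
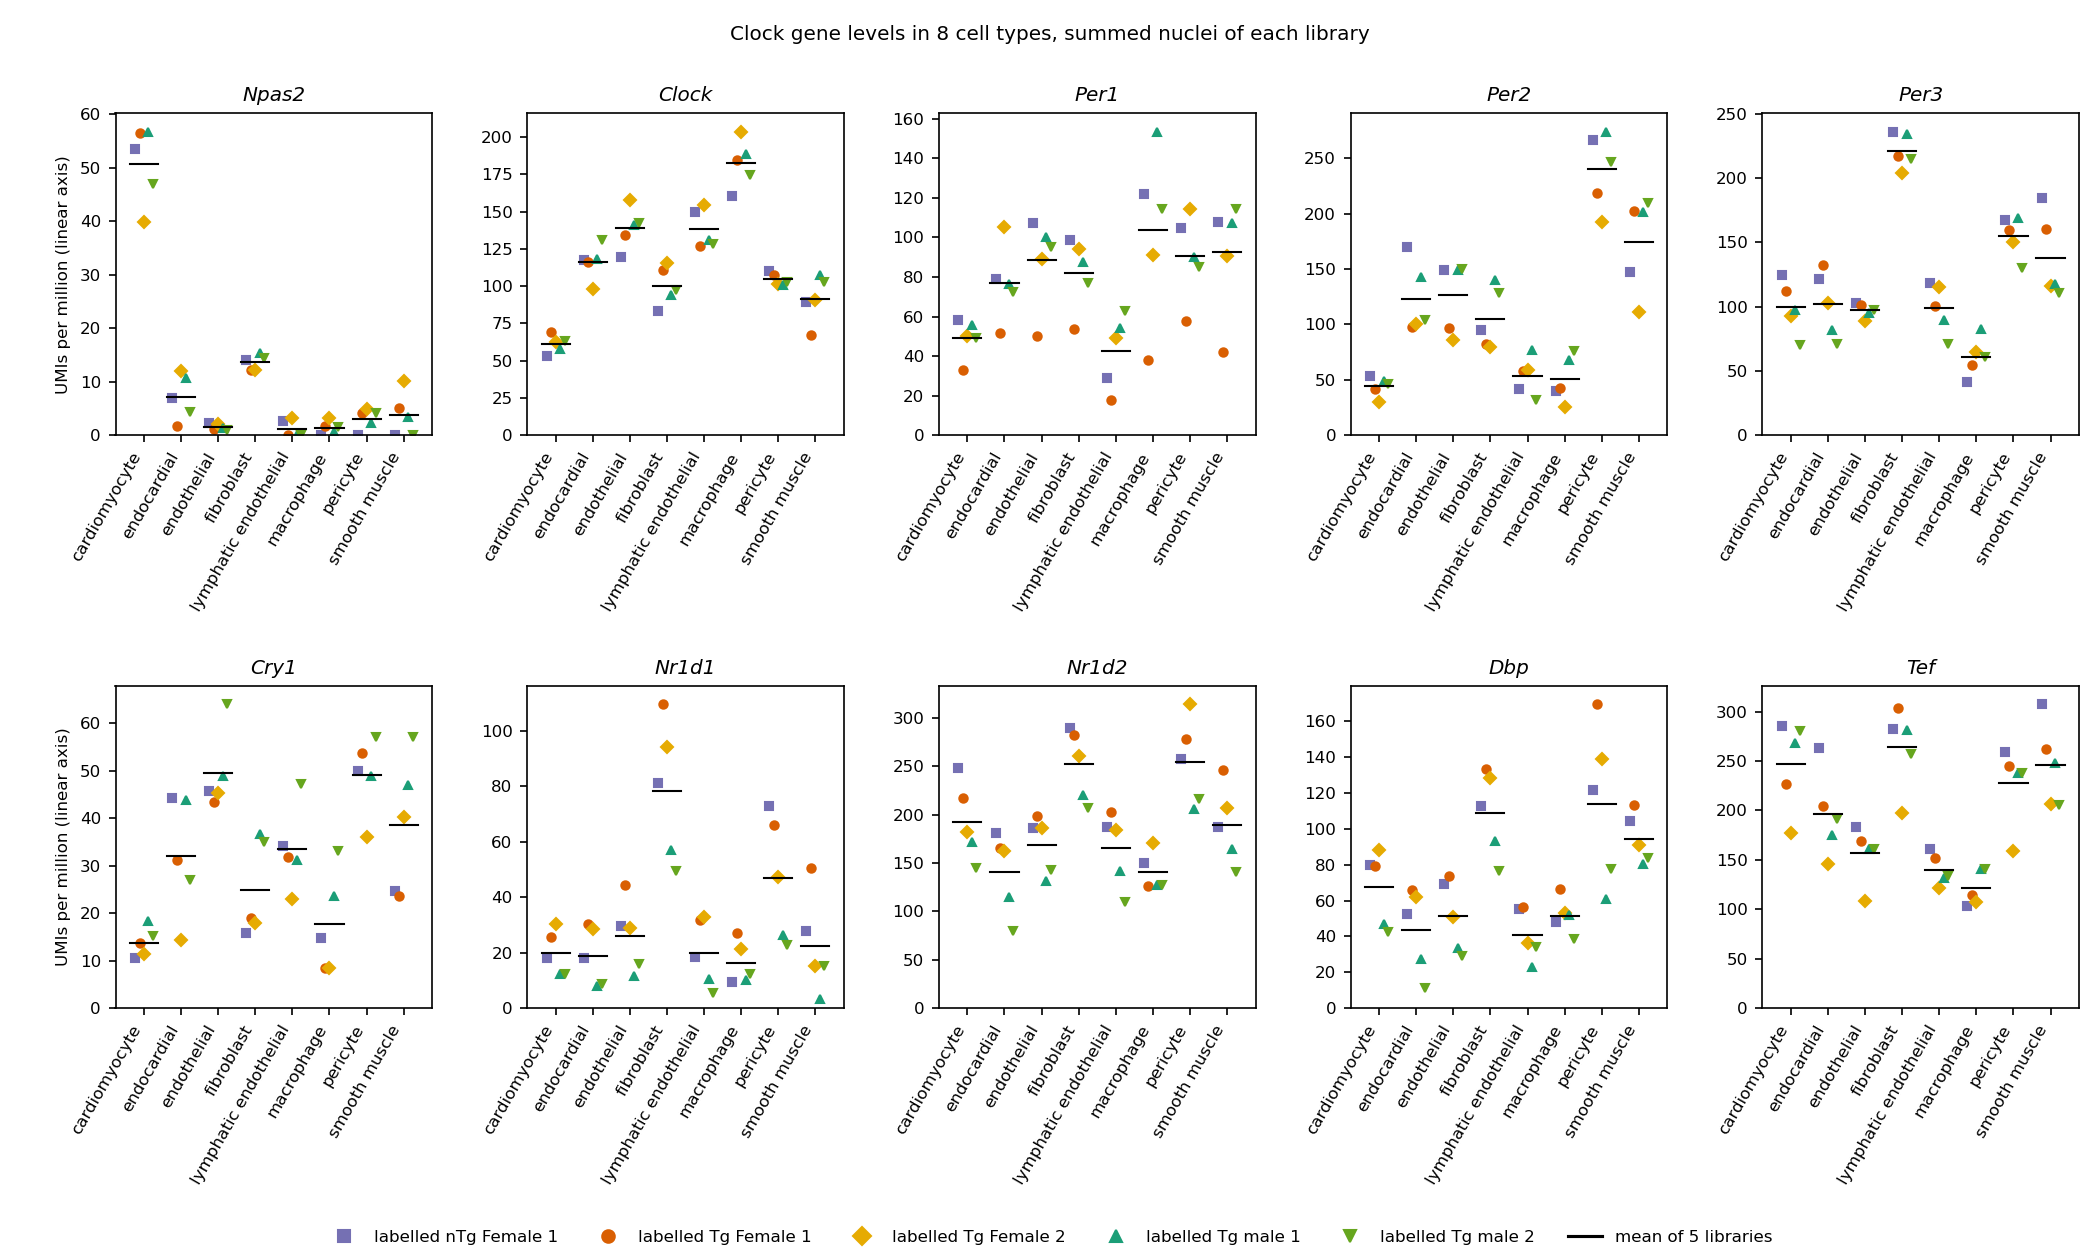
Level of each clock gene in CPM (linear axis) in the summed nuclei of 8 cell types, 1 symbol per library and a black line for the mean of the 5 libraries. Npas2 stands at 39.8 to 56.7 in cardiomyocytes and at no more than 15.3 in the other 7 types, while Per2 is highest in pericytes (193 to 274).

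Npas2 (ENSMUSG00000026077, chr1:39193731-39363236, plus strand), which encodes a partner of BMAL1 related to CLOCK, had 53.5, 56.5, 39.8, 56.7 and 46.9 CPM in cardiomyocytes. Fibroblasts came next with 13.99, 12.3, 12.1, 15.3 and 14.5 CPM. Neither set overlapped with that of another of the 8 tested types, though the lowest fibroblast value, 12.1, lay close to the highest endocardial one, 11.9. The cardiomyocyte mean was 50.7 ± 7.27 CPM (SD, n = 5), against 13.6 ± 1.39 in fibroblasts and 1.18 to 7.13 in the other 6 types. In edgeR, Npas2 was higher in cardiomyocytes by 4.70 on the log2 scale (SE 0.15, adjusted p = 3.8e-27, 4.11 with total UMI scaling) and in fibroblasts by 1.78 (SE 0.21, adjusted p = 1.4e-09).

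Cardiomyocyte RNA free in the droplets can add UMIs to other nuclei, and the 8 cardiomyocyte markers are given beside Npas2 for comparison. The part of such RNA in the Npas2 levels was not tested. Their summed level was 2.49% to 4.85% of the cardiomyocyte level in the other 7 types. Npas2 in fibroblasts was 27.2% of its cardiomyocyte level (21.7% to 30.9% over libraries), where the markers were 2.49%. In endothelial cells, macrophages and lymphatic endothelium Npas2 was 3.20%, 3.10% and 2.64% of the cardiomyocyte level, close to the 3.87%, 2.74% and 2.69% of the markers. Endocardial cells, pericytes and smooth muscle lay above the markers at 14.8%, 6.47% and 8.05%, from only 26, 15 and 6 UMIs. The 7 sums of Npas2 at 0 UMIs allow up to 2.21 to 11.4 CPM each, at 3 counts per sum. After thinning every nucleus to 1000 UMIs, 4.92% of 6383 cardiomyocyte nuclei held an Npas2 UMI (exact 95% binomial interval 4.40% to 5.48%). The shares were 1.24% of 12468 fibroblast nuclei (1.05% to 1.44%) and 0.135% of 6675 endothelial nuclei (0.0617% to 0.256%). Without thinning they were 27.3%, 2.91% and 0.299%, at median depths per library of 5912 to 8044, 2074 to 3019 and 1558 to 2201 UMIs. These intervals and floors cover counting error only.

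Clock (ENSMUSG00000029238, chr5:76209868-76304792, minus strand), the other activating partner of BMAL1, was highest in macrophages and lowest in cardiomyocytes, where Npas2 was highest. Macrophages had 160, 185, 204, 189 and 175 CPM and cardiomyocytes 52.8, 69.1, 62.2, 57.9 and 63.1 CPM. Macrophages lay above endothelial cells, the next type, in all 5 libraries, by 0.39 ± 0.06 on the log2(CPM + 1) scale (SD over libraries). Apart from that step no neighbours in the order of the 8 types differed beyond their spread, which asks for 1 sign in all 5 libraries and a mean over its SD. Clock was higher in macrophages by 0.73 on the log2 scale (SE 0.07, adjusted p = 4.8e-12) and in endothelial cells by 0.29 (SE 0.07, adjusted p = 0.00031), and lower in cardiomyocytes by 0.40 (log2 difference −0.40, SE 0.07, adjusted p = 2.2e-06, −0.99 with total UMI scaling) and in fibroblasts (−0.33, SE 0.07, adjusted p = 6.0e-05). Across the 8 types the mean log2 levels of Npas2 and Clock had r = −0.82, a description over types that share libraries. The low end of Npas2 in it rests on 23, 8 and 2 UMIs in endothelial cells, macrophages and lymphatic endothelium.

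Among the repressors, Per2 (ENSMUSG00000055866, chr1:91415982-91459324, minus strand) was highest in the mural cells of vessels. Pericytes, which wrap capillaries, had 267, 219, 193, 274 and 247 CPM and smooth muscle 147, 203, 111, 201 and 209 CPM. Cardiomyocytes had 53.9, 42.0, 29.7, 49.3 and 46.2 CPM, below every pericyte and smooth muscle value. Per2 was higher in pericytes by 1.41 (SE 0.11, adjusted p = 1.9e-14) and in smooth muscle by 1.10 (SE 0.14, adjusted p = 3.0e-08). It was lower in macrophages (−1.18, SE 0.14), lymphatic endothelium (−1.16, SE 0.18) and cardiomyocytes (−0.71, SE 0.11), at adjusted p = 1.1e-09, 7.6e-07 and 4.3e-07. After thinning to 1000 UMIs, 22.3% of 2134 pericyte nuclei (20.6% to 24.1%), 16.6% of 511 smooth muscle nuclei (13.5% to 20.2%) and 4.48% of 6383 cardiomyocyte nuclei (3.99% to 5.02%) held a Per2 UMI. The unthinned shares were 41.1%, 41.7% and 27.6%.

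Per3 (ENSMUSG00000028957, chr4:151003652-151044665, minus strand) was highest in fibroblasts, with 236, 217, 204, 235 and 215 CPM there. All 5 values lay above every value of the other tested types, of which pericytes came next at 155 ± 16.1 CPM (SD, n = 5). Macrophages were lowest with 41.2, 54.4, 64.7, 82.5 and 60.7 CPM. The log2 difference was 0.95 in fibroblasts (SE 0.09, adjusted p = 1.5e-12) and −1.11 in macrophages (SE 0.12, adjusted p = 9.2e-11). Its cardiomyocyte call depends on the scaling: 0.36 (SE 0.09, adjusted p = 0.00045) with TMM and −0.24 (adjusted p = 0.019) with total UMIs, each past the threshold. Per3 lies within the annotated bounds of Camta1 on the same strand, and how the authors split reads between them is not given in the sources used here.

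Per1 (ENSMUSG00000020893, chr11:69095217-69109960, plus strand), the member known to respond fastest to hormones and stress signals, varied more between libraries than between most types. Lymphatic endothelium had 29.0, 17.7, 49.4, 54.1 and 62.8 CPM and was lower by 1.15 (log2 difference −1.15, SE 0.17, adjusted p = 3.2e-07). Macrophages spread from 38.3 to 153 CPM and were higher by 0.43 (SE 0.10, adjusted p = 0.00044). The smooth muscle call (0.42, SE 0.15, adjusted p = 0.026) was lost when nTg Female 1 (adjusted p = 0.0994), Tg male 1 (0.0585) or Tg male 2 (0.111) was left out and under total UMI scaling (0.104). It was also lost without the filter on low counts (0.198), with doublets kept (0.189), without the library term (0.242) and without both nTg Female 1 and Tg Female 1 (0.0533). In cardiomyocytes the difference was −0.08 (adjusted p = 0.48) with TMM and −0.67 (adjusted p = 8.7e-08) with total UMIs.

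Cry1 (ENSMUSG00000020038, chr10:85131700-85185064, minus strand), which encodes the late-acting repressor cryptochrome 1, had 45.8, 43.3, 45.3, 48.9 and 64.0 CPM in endothelial cells and 49.9, 53.8, 36.0, 48.8 and 57.1 CPM in pericytes. Cardiomyocytes were lowest, with 10.5, 13.8, 11.4, 18.2 and 15.1 CPM, all below the values of those 2 types. Cry1 was higher in endothelial cells by 0.78 (SE 0.13, adjusted p = 1.4e-06) and in pericytes by 0.77 (SE 0.16, adjusted p = 6.8e-05). It was lower in macrophages (−0.93, SE 0.18, adjusted p = 3.1e-05) and cardiomyocytes (−0.66, SE 0.13, adjusted p = 2.2e-05). The lower fibroblast level (−0.48, SE 0.13, adjusted p = 0.0015) did not pass without nTg Female 1 and Tg Female 1 (−0.29, adjusted p = 0.117).

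The 2 REV-ERB genes shared part of their pattern. Nr1d1 (ENSMUSG00000020889, chr11:98767932-98775333, minus strand) had 81.2, 110, 94.1, 57.0 and 49.5 CPM in fibroblasts and 72.7, 66, 47.4, 26.3 and 22.8 CPM in pericytes. Fibroblasts lay above pericytes, and pericytes above endothelial cells, in all 5 libraries, and the other 5 steps in the order of types did not exceed their spread. Nr1d1 was higher in fibroblasts by 1.65 (SE 0.11, adjusted p = 9.6e-17) and in pericytes by 0.86 (SE 0.15, adjusted p = 9.9e-06), and lower in macrophages by 0.94 (log2 difference −0.94, SE 0.19, adjusted p = 3.2e-05). Its lower lymphatic endothelial level (−0.73, adjusted p = 0.020) was lost without Tg Female 1 (adjusted p = 0.0894), without Tg male 2 (0.0837) and under total UMI scaling (0.0997). It was also lost without both nTg Female 1 and Tg Female 1 (0.198) and without the library term (0.246). Its lower endocardial level (−0.77, adjusted p = 0.0027) was lost without both nTg Female 1 and Tg Female 1 (0.0515) and without the library term (0.135).

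Nr1d2 (ENSMUSG00000021775, chr14:18204054-18239127, minus strand) had 258, 279, 314, 206 and 216 CPM in pericytes and 289, 282, 261, 220 and 207 CPM in fibroblasts, 2 sets that overlapped. It was higher in pericytes by 0.46 (SE 0.08, adjusted p = 3.3e-06) and in fibroblasts by 0.37 (SE 0.07, adjusted p = 1.9e-05), and lower in endocardial cells (−0.57, SE 0.09, adjusted p = 1.1e-06) and macrophages (−0.52, SE 0.08, adjusted p = 1.0e-06). In cardiomyocytes it was 0.67 (adjusted p = 2.3e-11) with TMM and 0.08 (adjusted p = 0.32) with total UMIs. Its lower endothelial level (−0.21, adjusted p = 0.015) was lost without Tg male 1 (adjusted p = 0.104) and without both nTg Female 1 and Tg Female 1 (0.0903). It was also lost under total UMI scaling (0.113), without the filter on low counts (0.145) and without the library term (0.162).

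Of the output factors, Dbp had its highest means in pericytes, fibroblasts and smooth muscle, and Tef in these types and cardiomyocytes. Dbp (ENSMUSG00000059824, chr7:45705088-45710203, plus strand) had 122, 169, 139, 60.9 and 77.8 CPM in pericytes, 113, 133, 129, 93.4 and 76.2 CPM in fibroblasts and 104, 113, 90.8, 80.5 and 83.8 CPM in smooth muscle. These 3 sets overlapped, and lymphatic endothelium was lowest at 41.0 ± 14.5 CPM (SD, n = 5). The log2 differences were 0.79 (SE 0.12, adjusted p = 3.0e-07), 0.69 (SE 0.10, adjusted p = 7.1e-08), 0.70 (SE 0.16, adjusted p = 0.00052) and −0.98 (SE 0.18, adjusted p = 2.3e-05) in these 4 types. In cardiomyocytes Dbp was 0.61 (adjusted p = 5.1e-07) with TMM and 0.02 (adjusted p = 0.89) with total UMIs.

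Tef (ENSMUSG00000022389, chr15:81802421-81826863, plus strand) had its highest means in fibroblasts (265 ± 41.0 CPM), cardiomyocytes (247 ± 45.7), smooth muscle (246 ± 42.3) and pericytes (227 ± 39.4; SD, n = 5 for each), 4 neighbours that did not differ beyond their spread. In cardiomyocytes it was 285, 226, 177, 268 and 280 CPM. Macrophages were lowest, with 103, 114, 107, 141 and 141 CPM. Tef was higher in cardiomyocytes by 1.00 (SE 0.06, adjusted p = 2.7e-17, 0.41 with total UMI scaling), in smooth muscle by 0.52 (SE 0.09, adjusted p = 7.6e-06) and in fibroblasts by 0.37 (SE 0.07, adjusted p = 1.1e-05), and lower in macrophages (−0.84, SE 0.08, adjusted p = 1.1e-11) and lymphatic endothelium (−0.73, SE 0.09, adjusted p = 3.3e-08). Its pericyte call (0.20, adjusted p = 0.031) was lost without Tg Female 1 (adjusted p = 0.106), Tg male 1 (0.0902) or Tg male 2 (0.0773). It was also lost without both nTg Female 1 and Tg Female 1 (0.144), without the filter on low counts (0.0613) and without the library term (0.218).

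Reads of 3 members may be shared with genes on the opposite strand: Nr1d1 with Thra over 1075 bases, Dbp with Sphk2 over 737 bases and Tef with Gm17597 over 193 bases. Use of strand in the counting is not given in the sources used here. Thra was 85.1 to 91.3 CPM over all nuclei in the 5 libraries, where Nr1d1 was 21.8 to 54.6 CPM.

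Read by type, macrophages had the most calls, 2 higher (Clock and Per1) and 8 lower, where 31.1% and 31.2% of all genes were higher and lower there. The 8 lower include Npas2, from 8 UMIs over the 5 libraries. Pericytes had 7 members higher and 0 lower, beside 21.9% and 23.6% of all genes, and the other 3 members did not pass (log2 differences of −0.66 for Npas2, −0.17 for Clock and 0.23 for Per1). Lymphatic endothelium had 0 higher and 8 lower (19.2% and 17.6% of all genes), 5 of the 8 under both scalings. Npas2 is among these 5, from 2 UMIs over the 5 libraries. Its edgeR call was lost without Tg Female 1 (adjusted p = 0.0693), without Tg male 1 (0.0675) and with doublets kept (0.332). Fibroblasts had 6 higher and 2 lower (29.9% and 25.6%), smooth muscle 5 higher and 0 lower (18.5% and 16.0%), endothelial cells 3 higher and 5 lower (30.2% and 26.7%) and endocardial cells 0 higher and 4 lower (21.9% and 15.2%). Cardiomyocytes had 5 higher and 3 lower (41.0% and 36.8%), of which Npas2 and Tef remained higher and Clock, Per2 and Cry1 lower under both scalings. The median log2 difference of the 10 members was −0.89 in macrophages, −0.73 in lymphatic endothelium, 0.45 in pericytes and 0.43 in smooth muscle, where the median over all genes was −0.06, −0.08, −0.06 and −0.10.

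The wider clock list held 18 other genes, and 73 of its 144 gene and type pairs (50.7%) passed the same test, 36 higher and 37 lower, beside 50.8% of all pairs. Arntl, the gene of BMAL1, was low in every library, at 4.20, 4.88, 7.35, 5.82 and 6.91 CPM over all nuclei. It was higher in macrophages (13.2 ± 1.67 CPM, SD, n = 5, log2 difference 1.38, SE 0.30, adjusted p = 1.0e-04) and lower in pericytes (−1.19, SE 0.47, adjusted p = 0.038). The pericyte call rests on very low levels: 3.12 CPM in nTg Female 1, 2.44 ± 3.46 in Tg females and 2.45 ± 2.40 in Tg males (SD, n = 2 each). Like Npas2, Arntl could pass the filter through the types where it was higher. Rora and Rorb, which encode activators of Arntl, were highest in different types. Rora had 6297 ± 1472 CPM in fibroblasts and 4564 ± 726 in pericytes (log2 differences 2.57 and 2.13, SE 0.13 each) against 99.5 ± 64.6 in macrophages (−4.20, SE 0.22). Rorb was highest in cardiomyocytes (19.4 ± 5.29 CPM, 5.89, SE 0.34). Fibroblasts came next at 5.41 ± 1.94 CPM, and smooth muscle and lymphatic endothelium held 0 CPM in every library. The Rorb difference of 5.89 thus includes types without a UMI and does not measure the gap to fibroblasts. The adjusted p of the Rora and Rorb contrasts given was at most 1.9e-16 in edgeR.

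Several other outputs and modifiers of the clock were also highest in cardiomyocytes: Usp2, a deubiquitinase (231 ± 16.7 CPM, log2 difference 3.90, SE 0.07), Nampt, the enzyme that limits NAD synthesis (193 ± 42.6 CPM, 2.30, SE 0.11), and Ciart, a repressor of CLOCK–BMAL1 (34.6 ± 9.62 CPM, 2.45, SE 0.13). Nfil3, a repressor at D-boxes, was higher in cardiomyocytes (3.45, SE 0.25) and lymphatic endothelium (3.20, SE 0.47). The third PAR-bZIP gene, Hlf, was higher in pericytes (219 ± 33.6 CPM, 2.41, SE 0.13) and fibroblasts (207 ± 29.0 CPM, 2.25, SE 0.11) and lower in macrophages (4.57 ± 3.35 CPM, −4.06, SE 0.27). Bhlhe41 was higher in fibroblasts (1.95, SE 0.11) and cardiomyocytes (1.67, SE 0.12), and Bhlhe40 in lymphatic endothelium (1.75, SE 0.22) and fibroblasts (1.20, SE 0.14). These 2 encode repressors that compete for E-boxes. Arntl2 (2.23, SE 0.25) and Csnk1e, a kinase of PER proteins (1.54, SE 0.10), were higher in pericytes, and Timeless in endothelial cells (2.61, SE 0.13). Each of these differences is larger than the shift that total UMI scaling makes in its type and passed at an adjusted p of at most 4.8e-07 (edgeR). Cry2 and Csnk1d had 5 and 1 calls, with log2 differences between −0.72 and 0.55.

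Outside the 8 tested types the sums were small, and the values are given without a test. Over the 5 libraries, 528 nuclei were named Schwann, mesothelial, T or NK, B or adipocyte, and 3 clusters of 684 nuclei stayed unnamed. Npas2 in T or NK cells was 0, 136, 8.58, 94.2 and 0 CPM, so that Tg Female 1 (10 UMIs, exact 95% Poisson interval 65.1 to 249.7 CPM) and Tg male 1 (4 UMIs, 25.7 to 241 CPM) lay above the cardiomyocyte values, while nTg Female 1 and Tg male 2 held no UMI. In B cells it was 0, 53.1, 19.4, 13.4 and 0 CPM, from at most 3 UMIs. Schwann cells had 200, 219, 197, 248 and 254 CPM of Tef. Its mean was 338 CPM in mesothelial cells (199 to 598, 129 UMIs in all) and 521 CPM in adipocytes (209 to 1057, 30 UMIs in all). Both means lay above the fibroblast mean of 265 CPM, but with wide spreads. T or NK and B cells had lower means, 86.6 and 65.2 CPM. Dbp had 0 to 17 UMIs and Nr1d1 0 to 7 in each library of these 5 types, and no order of the libraries is read from them.

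The next comparison asked how the clock genes differ between the libraries labelled female and male. The labels give no time of collection, so a difference by sex cannot be told apart here from a difference in that time. Over all nuclei, Nr1d1 was 39.3, 54.6, 52.3, 24.6 and 21.8 CPM, Dbp 86.1, 97.0, 94.8, 57.5 and 49.2 CPM, and Nr1d2 241, 230, 213, 175 and 159 CPM. Each of the 3 female libraries was above both male libraries for these 3 genes, a separation shown by 14.1% of all genes over all nuclei. Cry1 and Per2 went the other way, with 20.3, 21.3, 20.3, 30.8 and 30.1 CPM for Cry1 and 91.2, 72.4, 64.2, 106 and 95.01 CPM for Per2. Every female library was below both male ones for these 2, as for 8.61% of all genes. In bulk sums such as these, fewer cells of a type and less RNA per cell cannot be told apart, so the same genes were compared within types. Types still pool clusters of unequal library shares. A fibroblast cluster of 2195 nuclei drew 57.7% of them from 1 library, and a cardiomyocyte cluster of 355 nuclei drew 47.3%. The part of such mixes in the differences within types was not tested.

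**Figure D2:**
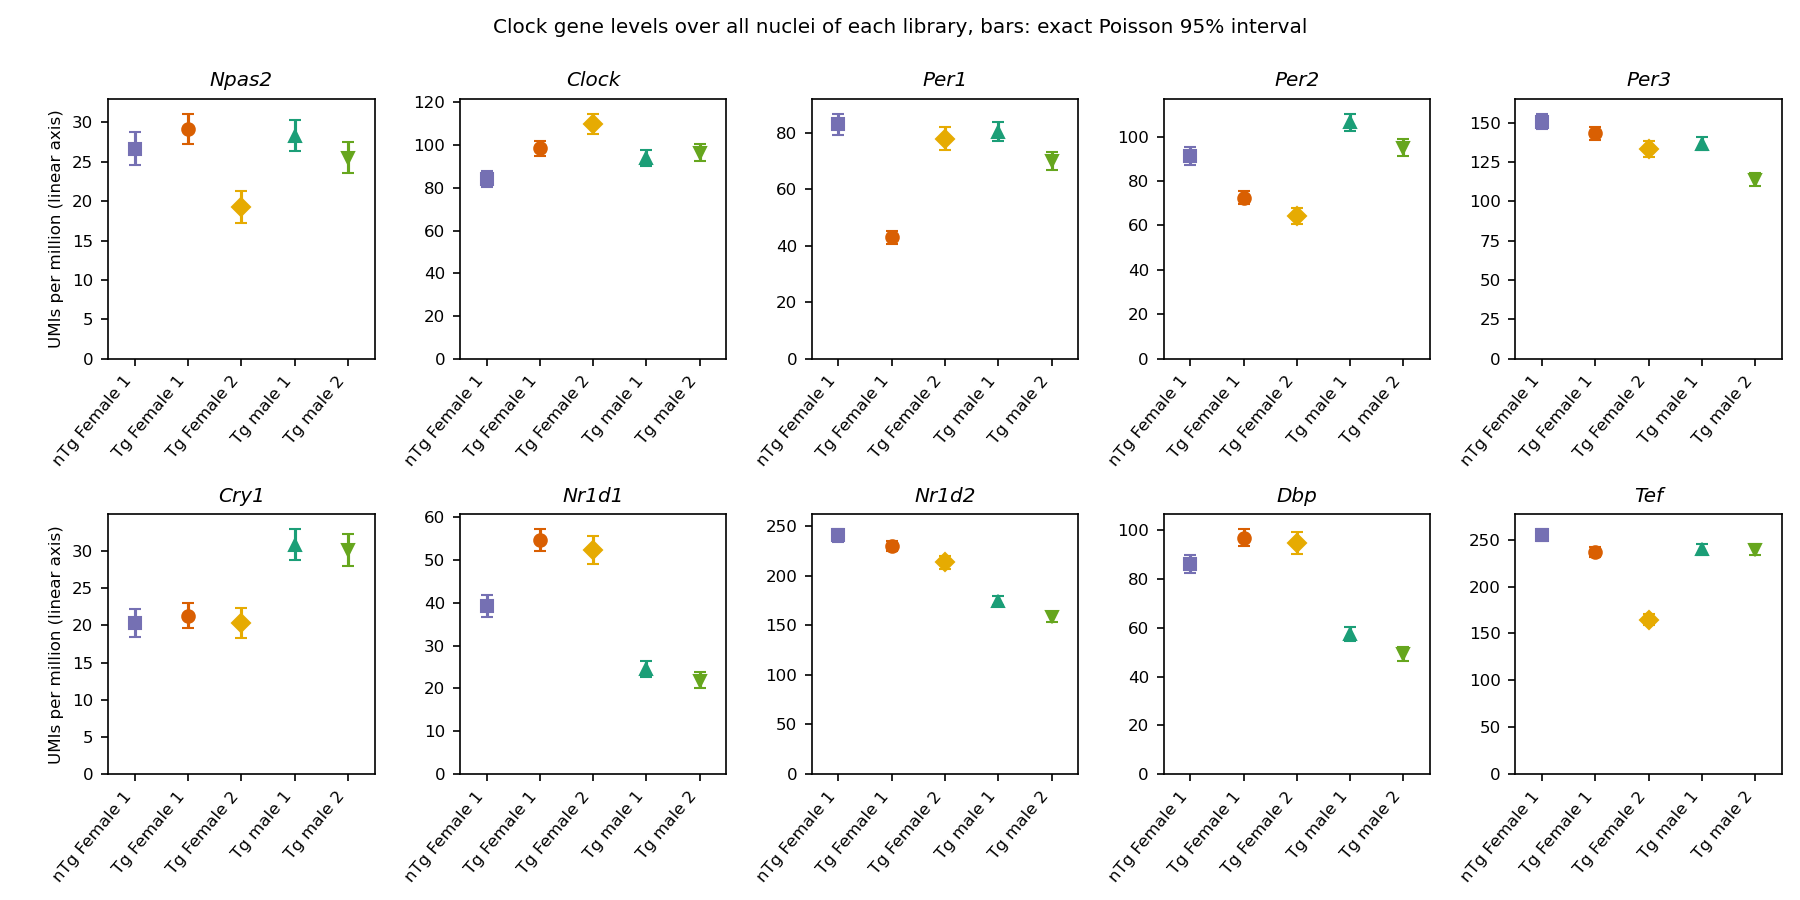
Level of each clock gene over all nuclei of each library, in CPM (linear axis), with exact Poisson 95% intervals that cover counting error only. Nr1d1, Nr1d2 and Dbp are higher in the 3 female libraries than in both male ones, Cry1 and Per2 are lower, Per1 is lowest in Tg Female 1 (43.0) and Tef in Tg Female 2 (164).

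Within types, all 3 female libraries lay above both male ones for Nr1d2 in 7 of 8 types, for Dbp in 7 and for Nr1d1 in 6, where 12.6% of all gene and type pairs did so. For Cry1 all 3 lay below in 5 of 8 types and for Per2 in 2, where 10.0% did so. Types of 1 library share animals and handling and are not replicates of each other. In fibroblasts, Nr1d1 was 81.2, 110 and 94.1 CPM in the female libraries and 57.0 and 49.5 CPM in the male ones. In cardiomyocytes, Dbp was 79.6, 79.4 and 88.5 CPM against 46.7 and 42.4 CPM, and Nr1d1 was 18.0, 25.8 and 30.4 CPM against 12.3 and 12.2 CPM, with no overlap in either. In endocardial cells, Dbp was 52.5, 65.8 and 62.1 CPM against 27.3 and 11.4 CPM. In fibroblasts, Cry1 was 15.8, 19.0 and 17.9 CPM against 36.8 and 34.9 CPM.

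The test of sex used the 2 libraries labelled Tg Female and the 2 labelled Tg male, because nTg had 1 library. None of these differences passed the adjusted threshold. In the edgeR quasi-likelihood test, 0 of the 73 member and type pairs that passed the filter on low counts were called, where 0.187% of all pairs were (7 pairs, 6 of Npas2 and 1 of Nr1d1, did not pass the filter). At an unadjusted p under 0.05 there were 25 of the 73 (34.2%), 17 higher and 8 lower in females, beside 7.85% of all pairs (4.01% higher and 3.84% lower), and DESeq2 called 5. The lowest adjusted p was 0.0806, for Cry1 in fibroblasts (female minus male −1.04 on the log2 scale, SE 0.18). For Nr1d1 the estimate was positive in all 7 tested types, from 0.85 (fibroblasts, SE 0.17) to 1.94 (lymphatic endothelium, SE 0.62), each at an unadjusted p under 0.05. The estimates for Dbp ran from 0.39 to 1.60 and those for Nr1d2 from 0.19 to 0.68 over 8 types, with 5 and 4 types under that p. Those for Cry1 were negative in 8 of 8 types, from −1.74 to −0.18, and those for Per2 in 7 of 8, down to −1.08 in macrophages, with 2 and 3 types under it. Per1 ran from −1.10 to −0.08 (2 types under it), Per3 from −0.29 to 0.59 (1), Tef from −0.48 to 0.11 (1) and Clock from −0.41 to 0.15 (0). The largest estimates of Nr1d1, Dbp and Cry1 rest on low counts. Nr1d1 in lymphatic endothelium had 42 UMIs over the 5 libraries (Tg males 7.82 ± 3.66 CPM). Dbp in endocardial cells had 174 (Tg males 19.4 ± 11.3 CPM) and Cry1 in macrophages 116 (Tg females 8.50 ± 0.01 CPM; SD, n = 2 for each).

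**Figure D3:**
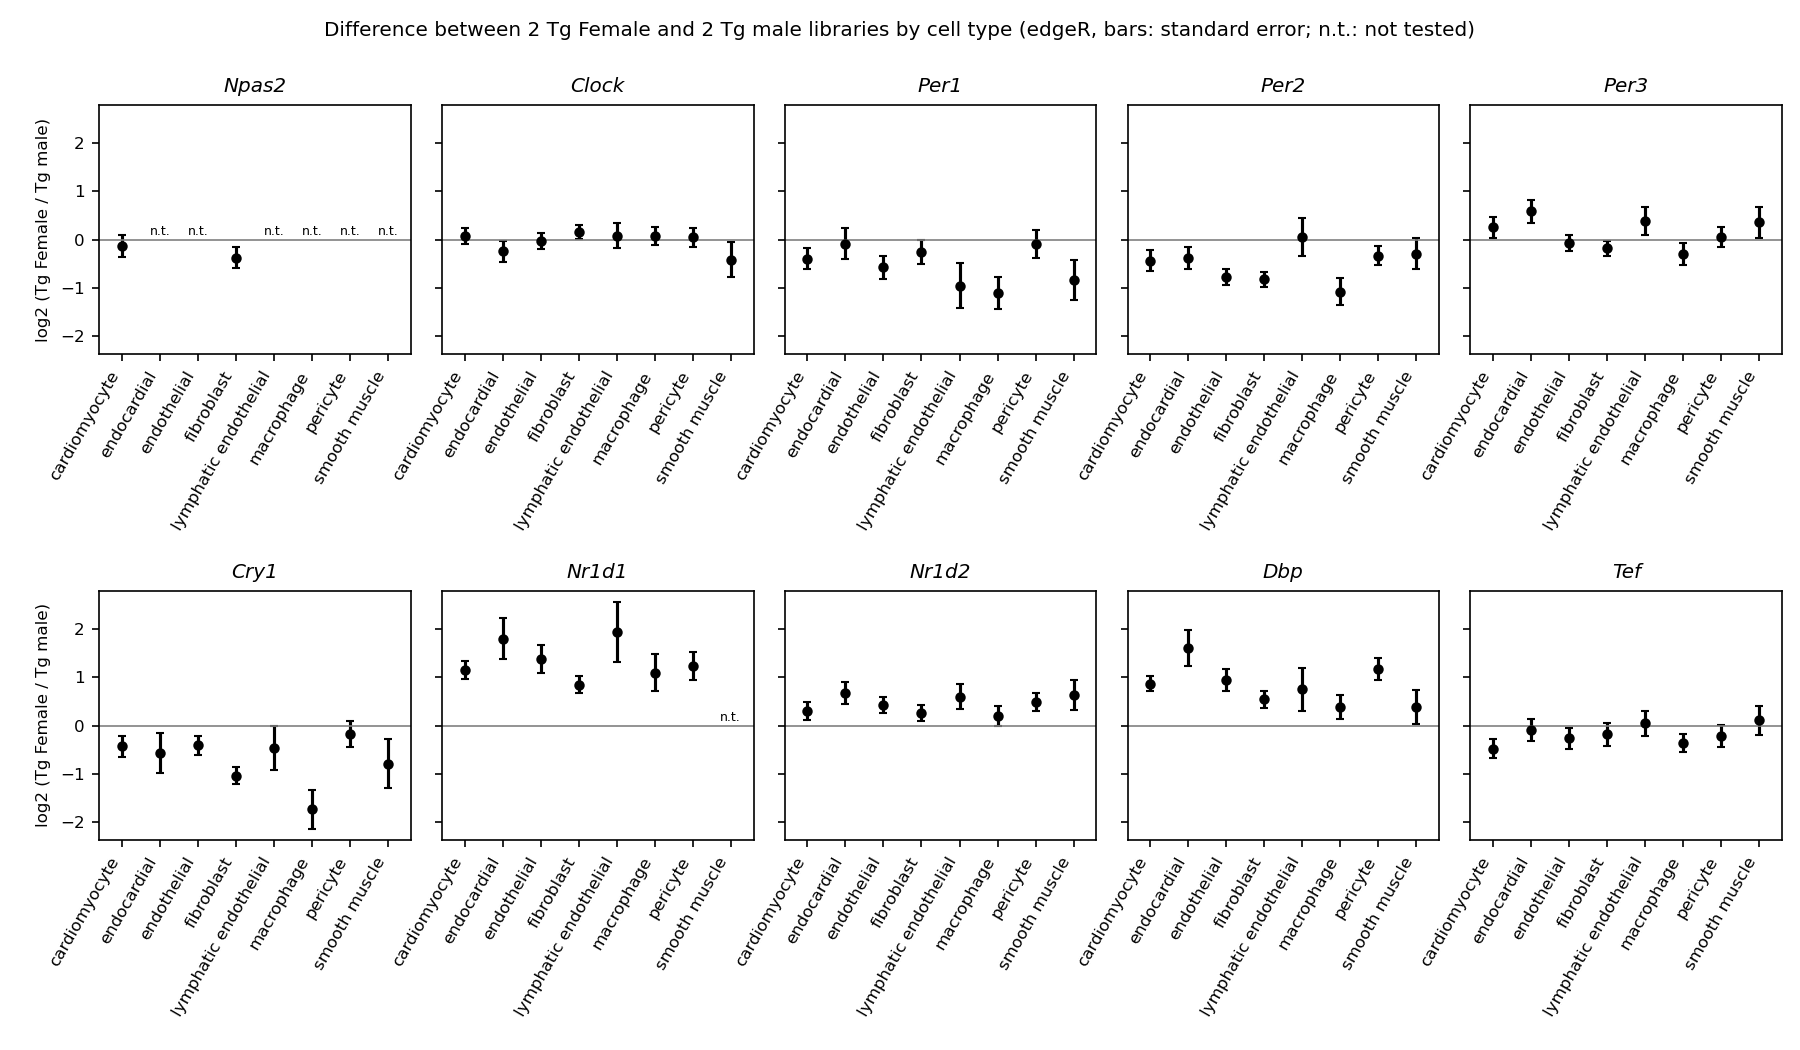
Log2 difference between the 2 Tg Female and the 2 Tg male libraries for each clock gene and cell type, with the edgeR standard error as bar, and a grey line at no difference (n.t., not tested). Nr1d1, Nr1d2 and Dbp lie above the line and Cry1 and Per1 below it in every type tested, and no point passes the adjusted threshold.

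Over all nuclei 0 of the 10 members passed in the same edgeR test (0.0257% of all genes did), 4 had an unadjusted p under 0.05 (7.98% of all genes), and DESeq2 called 2. The differences were 1.13 for Nr1d1 (SE 0.15, adjusted p = 0.169), 0.78 for Dbp (SE 0.15, adjusted p = 0.291), −0.62 for Cry1 (SE 0.15, adjusted p = 0.353) and −0.63 for Per2 (SE 0.16, adjusted p = 0.368). Over the 7 alternative fits the adjusted p ranged from 1.3e-05 to 0.419 for Nr1d1 and from 0.00659 to 1.00 for Dbp, while the difference stayed between 1.02 and 1.21 and between 0.68 and 0.87. Both the number of calls and their names depend on the libraries used. Within types, leaving out Tg Female 1, whose Ccna2 goes against its label, gave 8 calls, leaving out Tg Female 2 gave 12, and leaving out Tg male 1 or Tg male 2 gave 1 each, with the lone library assumed to vary like the other pair. Adding nTg Female 1, with or without a genotype term, gave 0.

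Whether the sex difference itself varies between types was tested as an interaction. In edgeR, 0 of 80 pairs passed (0.122% of all pairs did), 13 had an unadjusted p under 0.05 (6.22% of all pairs), and no other tool was run. The lowest adjusted p was 0.207, for Per1 in macrophages, where the Tg female minus male difference was lower by 0.70 on the log2 scale (log2 difference −0.70, SE 0.19) than the mean of the other types.

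Of the 18 other clock genes, 1 of the 103 pairs tested for sex was called (0.971%, beside 0.187% of all pairs). Nampt in fibroblasts was 38.2 and 46.0 CPM in Tg females and 93.3 and 101 CPM in Tg males (−1.29, SE 0.17, edgeR adjusted p = 0.040), and 126 CPM in nTg Female 1, above both male libraries. At an unadjusted p under 0.05 there were 28 of the 103 (27.2%, beside 7.85% of all pairs). Bhlhe41 was higher in all 3 female libraries than in both male ones in 7 of 8 types (12.6% of all pairs), and Rora lower in 6 of 8 (10.0% of all pairs). The 7 types of Bhlhe41 include lymphatic endothelium, with 2.63 CPM in nTg Female 1 and 2.35 ± 0.380 CPM in the males (SD, n = 2). That separation rests on very few UMIs.

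The libraries also differed in ways that did not follow sex, and Per1 shows this most. Over all nuclei Per1 was 83.0, 43.0, 77.9, 80.3 and 70.0 CPM, and Tg Female 1 was the lowest library in all 8 types, as for 0.189% of the 6340 genes with a mean of at least 10 CPM in each type. In fibroblasts it was 98.5, 53.9, 94.1, 87.5 and 77.0 CPM and in macrophages 122, 38.3, 91.3, 153 and 115 CPM, so that Tg Female 1 did not overlap with the other 4 in either. Per1 is a known target of the glucocorticoid receptor, and 9 other glucocorticoid-responsive genes summed to 3072, 1039, 1517, 3005 and 2784 CPM over all nuclei. Of the 9, 8 were lowest in Tg Female 1, and the share of all genes lowest there over all nuclei was not counted. Fkbp5, a glucocorticoid receptor co-chaperone, was 482, 118, 207, 537 and 554 CPM and lowest in Tg Female 1 in all 8 types. Both Tg Female libraries were thus below the other 3 in the summed list, but only 1 of them was low in Per1. The sum weighs Zbtb16 most, which alone was 1607, 507, 766, 1661 and 1584 CPM. By gene, Tg Female 2 was lowest for 1 of the 9 and highest for 1 over all nuclei. The part of these genes in the Per1 result was not tested.

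**Figure D4:**
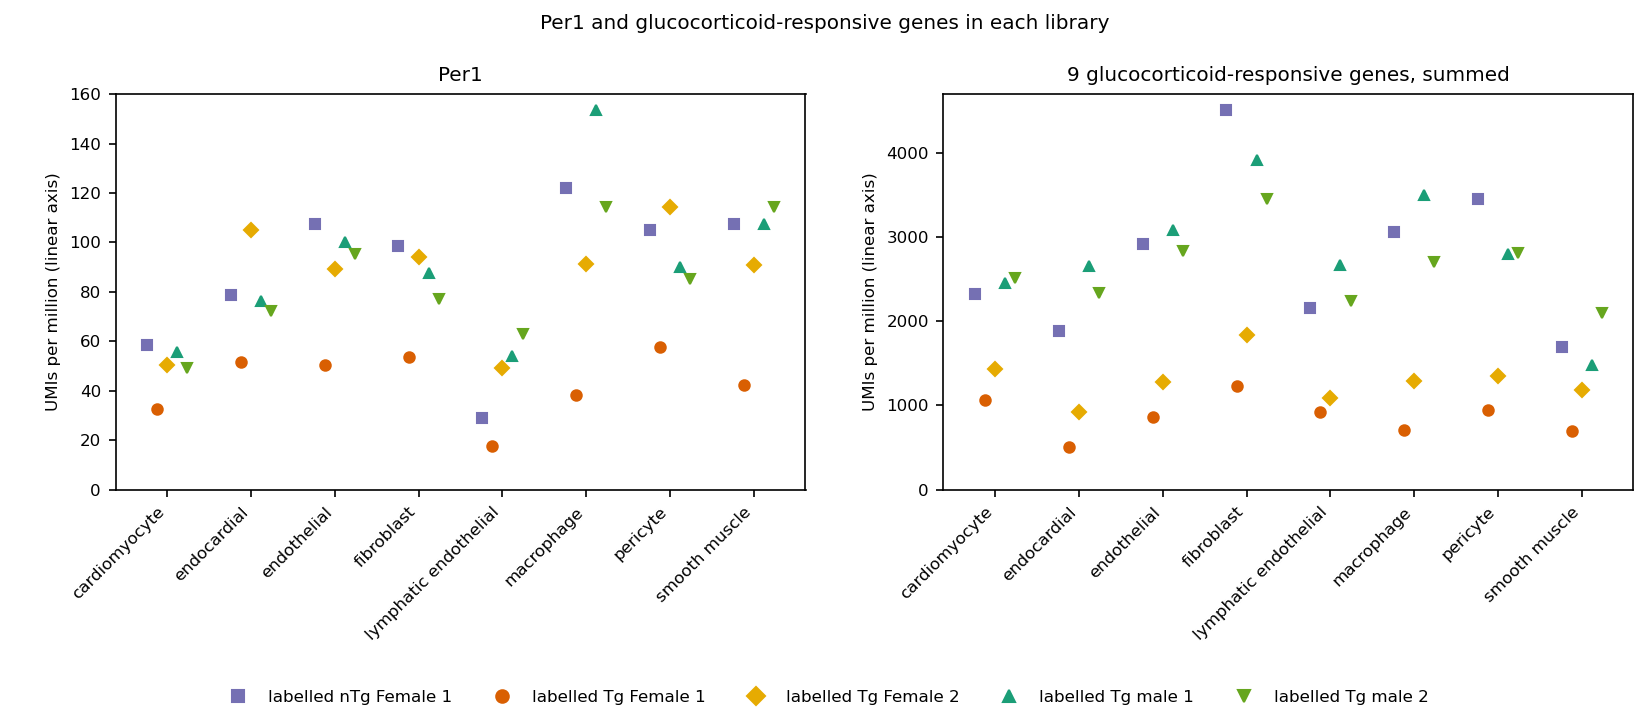
Per1 (left) and the sum of 9 glucocorticoid-responsive genes (right) in CPM (linear axes) in 8 cell types, 1 symbol per library. Tg Female 1 is the lowest library of Per1 in all 8 types, while in the summed list both Tg Female 1 and Tg Female 2 lie below the other 3 libraries in each type.

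Tef was 255, 237, 164, 240 and 240 CPM over all nuclei. Tg Female 2 was its lowest library in 6 of 8 types, and also the lowest of Per2 in 6 of 8 and of Cry1 in 4 of 8. The share of all genes lowest in that many types was not counted. Of the 6340 genes with a mean of at least 10 CPM in each type, Tg Female 2 was lowest in all 8 types for 0.804%. It was highest in all 8 types for 2.33%. In Tg Female 2, 7 of 8 immediate early genes, which respond to stress and to tissue handling, were at their highest over all nuclei. Their sum was 87.3, 93.9, 165, 83.5 and 94.4 CPM. The share of all genes at their highest in Tg Female 2 over all nuclei was not counted. The depth of Tg Female 2 was also the lowest of the 5, at 25045167 UMIs. The part of the immediate early genes or of depth in these results was not tested. The mitochondrial share of UMIs over all barcodes was 3.98%, 1.93%, 3.15%, 2.38% and 3.32%, which did not separate the sexes. Clock and Npas2 kept no common order of libraries: over all nuclei Clock spanned 1.31 times from the lowest to the highest library and Npas2 1.52 times, against 2.50 times for Nr1d1 and 1.97 times for Dbp.

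The library labelled nTg Female 1 was set beside the 4 labelled Tg without a test, and its label is contradicted by its Ccna2 level. Over all nuclei no member differed by 2-fold or more from the Tg mean, and 5 of 10 lay outside the Tg range, where 27.9% of the 10818 genes with a mean of at least 10 CPM did. Clock was below all 4 (84.1 CPM, exact 95% Poisson interval 80.4 to 87.9, against 99.7 ± 7.02, SD, n = 4, log2 ratio −0.25). Per1 (83.0 against 67.8 ± 17.1 CPM, 0.29), Per3 (151 against 132 ± 12.7 CPM, 0.19), Nr1d2 (241 against 194 ± 33.0 CPM, 0.31) and Tef (255 against 220 ± 37.1 CPM, 0.21) were above all 4. The ratios of the other 5 members ran from −0.34 (Cry1) to 0.21 (Dbp).

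The genes most like each member over libraries were ranked by Pearson r of log2(CPM + 1) centred within each type, over 40 points of 8 types and 5 libraries that share animals and depth, among 10983 genes. For Dbp the top genes were Tsix (r = 0.79), Xist (0.79) and AC149090.1 (0.76), for Nr1d2 Tsix (0.87), Xist (0.85) and AC149090.1 (0.84), and for Nr1d1 Xist (0.81), Tsix (0.78) and Mtus2 (0.76). Xist and Tsix are transcribed from the X-inactivation centre, so these members ordered the libraries much as sex did. For Cry1, Lifr (0.71), Gramd3 (0.68) and the Y-linked Uty (0.67) came first. For Per1 they were Capn11 (0.84), the clock-controlled kinase gene Wee1 (0.77) and Ica1l (0.76), and for Per2 Usp48 (0.78), Cyth1 (0.69) and Csnk1a1 (0.69). Among the members themselves, Nr1d2 with Dbp (r = 0.80), Nr1d1 with Nr1d2 (0.71) and Nr1d1 with Dbp (0.70) were most alike, and Cry1 with Nr1d1 (−0.58) least.

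For the others over libraries, the leading genes were Mrpl52 (0.71), Alpk2 (0.71) and Kctd8 (0.70) for Npas2, Mest (0.71), Gsap (0.66) and Zmat5 (0.65) for Clock, Sirt5 (0.66), Kdm5b (0.64) and Phkg2 (0.64) for Per3, and Zbtb20 (0.73), Ctsd (0.73) and Pik3ca (0.72) for Tef. Over the 8 type means, each member had genes of nearly the same profile, such as Vwc2 for Npas2 (r = 0.99), Cdc42 for Clock (0.99), Hrct1 and Spry4 for Per2 (0.98 each), Kdm5b for Per3 (0.94), Atf5 for Nr1d1 (0.97) and Pcdh18 for Dbp (0.95). With 8 points and 10983 genes such values describe these data only.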

How the data were processed

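Single-nucleus RNA was measured in 5 retained libraries of adult mouse heart. The deposited values are UMI counts per gene and nucleus, made by the authors with Cell Ranger 7.0.0 per the file headers, on mm10 per the submitters' processing notes; annotation, intron counting, cell calling and use of strand are not given in the sources used here. Coordinates are from GRCm38. Nuclei with at least 200 genes and under 5% mitochondrial UMIs were kept, and the 8% with the highest doublet score per library were removed, since the caller's own threshold did not work in Tg Female 2. They were clustered (scanpy 1.11.5, 2000 variable genes without the clock genes, sex-linked genes and Ccna2, 30 components, 15 neighbours, Leiden resolution 1) and named from marker lists. Counts were summed per library and type. Type contrasts (with a library term) and sex contrasts (2 against 2 libraries labelled Tg) used edgeR 4.0.16 quasi-likelihood tests, with filtering of low counts, TMM scaling and Benjamini-Hochberg adjustment at 0.05 over all genes. DESeq2 1.42.0, other scalings, filters, clusterings and left-out libraries were alternatives. The script was tested on simulated data. CPM uses the untrimmed sum, and log2 CPM a pseudocount of 1.

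The genes named were all 10 members whatever their values, Arntl, and those of the 18 other clock genes called in a type or sex contrast or among the genes most like a member. Some genes of that list are counted but not reported by name here. The members and lists were chosen with earlier results of these data known. Like genes were the top 3 by r with a mean of at least 10 CPM. Depth was 25045167 to 38593706 UMIs per library, and Poisson and binomial intervals (95%, exact) cover counting error only. The 3 libraries whose matrices repeat others were left out.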

Additional observations from a re-analysis of the deposited data

Results flagged for a closer look

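Of 80 groups of 5 libraries (10 genes in 8 types), 2 held a library far from the other 4 by Dixon's criterion, where chance gives about 4. Cry1 in endothelial cells was 64.0 CPM in Tg male 2 (193 UMIs) and 43.3 to 48.9 CPM in the other 4 libraries, a gap of 0.731 of the whole range. Tef in pericytes was 159 CPM in Tg Female 2 (97 UMIs) and 237 to 259 CPM in the others, a gap of 0.787 of the range.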

How the results depend on the processing

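The 58 differences between types were refitted under 15 distinct alternatives (leaving out nTg Female 1 is the fit of the 4 libraries labelled Tg). These gave 847 values, since 23 pairs had none with at least 10 UMIs in every sum: 798 kept their direction and call, 48 kept the direction only and 1 reversed, Per3 in cardiomyocytes (−0.24 with total UMI scaling). The count of calls was 38 of 48 pairs with at least 10 UMIs in every sum, where fewer genes were tested, and 54 to 57 when 1 library was left out. For sex within types (0 calls of 73), DESeq2 gave 5 calls, no filter on low counts 13, at least 10 UMIs 1, doublets kept 1 and leaving out 1 library 1 to 12. The sex by type test gave 1 call with at least 10 UMIs. Over all nuclei (0 of 10), DESeq2 gave 2 and leaving out 1 library 0 to 1. The cause was not tested. Sex estimates over all nuclei that reversed were Clock with 5 libraries and no genotype term (−0.0193), Npas2 when 1 library was left out (−0.614 to 0.096, positive without Tg Female 2) and Per3 likewise (−0.0402 to 0.192, negative without Tg Female 1 or Tg male 2). Within types, Cry1 in pericytes did so (−0.547 to 0.0285, positive without Tg Female 2). Same-numbered Tg libraries share only a number, since no label pairs them and their deviations had r of −0.02 to 0.18 over 2 pairs. With the replicate block, sex calls were 9 within types and 3 over all nuclei, and without the library block 49 type calls passed. Where few UMIs stand behind a sum, as for Npas2 outside cardiomyocytes and fibroblasts, depth limits what can be seen. Scaling by total UMIs and leaving out the 2 libraries with doubtful Ccna2 were chosen after seeing the data; the latter gave 52 type calls.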
